A study of Mus musculus with 8 samples.

Results

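The synaptonemal complex and axis genes described here are Sycp2 and Sycp3 of the lateral element, Hormad1 and Hormad2 of the axis, Sycp1 of the transverse filament, and Syce1, Syce2, Syce3, Tex12 and 4930447C04Rik (Six6os1) of the central element. They were chosen by name, as the genes of the synaptonemal complex and of the HORMA domain proteins of the chromosome axis without the cohesins, and all 10 were found once among the 55421 genes of the count table. All 10 also passed the filter on low counts that left 20477 genes to test. RNA-seq was performed on spermatogonial stem cell (SSC) culture, a primary culture of mouse undifferentiated spermatogonia from testes of 6-day-old pups of the C57BL/6 X DBA/2 background, grown on a feeder layer of mouse embryonic fibroblasts. Veh was the vehicle in complete SSC medium, RA the same medium with 100 nM retinoic acid, NR a medium of 10% complete medium and 90% Earle's Balanced Salt Solution (EBSS in the labels), and NRRA the restricted medium with RA (RA_EBSS in the labels). Treatment lasted 2 days, and each of the 4 conditions had 2 libraries. The labels give the culture N2 supplement with bFGF and GDNF, each at 10 ng/ml, for every condition alike, while the media table of the study lists more GDNF. That media table describes the restricted medium as complete medium diluted with EBSS and lists no factor added back, and the labels do not say. On that description the growth factors were diluted together with the nutrients, and their parts were not tested. No gene was targeted in these libraries.

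In meiotic prophase each pair of sister chromatids is organised along a protein axis, to which SYCP2 and SYCP3 add as the lateral element and HORMAD1 and HORMAD2 bind on stretches that have not yet synapsed. SYCP1 dimers form the transverse filaments that join the axes of the homologs like the teeth of a zipper, and SYCE1, SYCE2, SYCE3, TEX12 and SIX6OS1 form the central element that holds the filaments together along the midline. Axis proteins load before synapsis, and mice that lack most of these proteins are sterile in one or both sexes because their spermatocytes or oocytes arrest or are lost.

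NRRA raised most of these genes by modest amounts: 8 of the 10 were higher than in Veh in the edgeR test (adjusted p under 0.05), against 30.1% of all tested genes. The largest differences were those of the lateral element genes, with Sycp3 at 3.63-fold and Sycp2 at 2.5-fold, followed by Hormad1 at 1.99-fold, 4930447C04Rik at 1.8-fold and Sycp1 at 1.73-fold. Syce1, Syce2 and Tex12 were 1.27-fold to 1.3-fold higher, and Hormad2 and Syce3 did not pass. The median log2 difference of the 10 genes was 0.59, beside 0.03 over all tested genes. At a fold of at least 2, 2 of the 10 genes were higher, against 9.91% of all tested genes.

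Library totals ranged from 19261333 to 30023585 counts, and each value below is in CPM, a gene's count scaled to the normalised size of its library. Germ-cell genes marked the culture as labelled, with Ddx4 at 131 to 191 CPM and Dazl at 299 to 467 CPM. Genes of undifferentiated spermatogonia (9 listed) summed to 855 to 919 CPM in Veh, 424 to 437 in RA, 820 to 846 in NR and 337 to 345 in NRRA. Of these 9, Sall4 was higher in NRRA (197 to 204 CPM) than in Veh (127 to 132), Id4 overlapped Veh, and the others were lower. The 8 pan-germ-cell genes summed to 740 to 759 CPM in Veh, 781 to 846 in RA, 919 to 949 in NR and 892 to 918 in NRRA, so that this sum was itself 0.27 higher in NRRA than in Veh on the log2 scale. The genes did not move together: Ddx4 and Dazl were higher in NRRA than in Veh. Mael, Tdrd1, Dnd1, Nanos3 and Dppa3 were lower, and Rbmxl2 overlapped. Genes of differentiating spermatogonia (6 listed) summed to 427 to 453 CPM for Veh, 1278 to 1279 for RA, 512 to 527 for NR and 1790 to 1837 for NRRA. Most of the rise in RA and NRRA came from Stra8 (1.14 to 1.51 CPM in Veh, 632 to 653 in RA, 917 to 957 in NRRA) and Kit. All 6 were higher in NRRA than in Veh. In RA, Sohlh1 and Dnmt3b overlapped Veh and Uchl1 was lower, and in NR Sohlh2 and Dnmt3b were lower. The sum of the 9 fibroblast genes was high throughout and moved with the medium, at 19831 to 20020 CPM for Veh, 16211 to 17402 for RA, 30566 to 31882 for NR and 24713 to 25514 for NRRA. Single genes differed in direction. Col1a1, Col1a2, Col3a1, Dcn, Pdgfrb and Postn were higher in NR and NRRA than in Veh. Vim was lower in both (951 to 982 and 681 to 704 CPM, beside 1773 to 1803 in Veh), and Fn1 and Lum were lower in NRRA. The 8 Sertoli cell genes summed to 41.9 to 44.5 CPM for Veh, 29.1 to 29.2 for RA, 47.8 to 51.6 for NR and 18 to 19.4 for NRRA, mostly from Sox9 (31.2 to 37.5 CPM for Veh and NR, 7 to 7.29 for NRRA). Of the Sertoli genes, 3 stayed under 1 CPM in every library, among them Amh at or below 0.248 CPM. In such bulk RNA a different number of germ cells and a different RNA level per germ cell cannot be told apart, and the part of the cell mixture in the results below was not tested.

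The second measured fact that runs through the results is base composition. Of the 10 genes, 6 (Sycp1, Sycp2, Sycp3, Tex12, Hormad1 and 4930447C04Rik) have longest transcripts of 34.3% to 36.4% GC, whereas Hormad2 has 43.9% and Syce1, Syce2 and Syce3 have 49.3% to 52.9%. The 290 tested genes of 34% to 37% GC had a median log2 difference from Veh of 0.4 under RA, 0.33 under NR and 0.55 under NRRA. The same medians for the 6 genes were 0.7, 0.51 and 0.92. Of those 290 genes, 43.8% were called higher than in Veh under RA, 40.7% under NR and 54.5% under NRRA, shares above those of all tested genes. The differences printed below are therefore given also from a fit in which each library's trend with GC content and length was removed, where that fit moved them by more than 1.5 times, turned their sign or ended their call. Whether the trend arose in the cells or in the libraries was not tested.

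**Figure D1:**
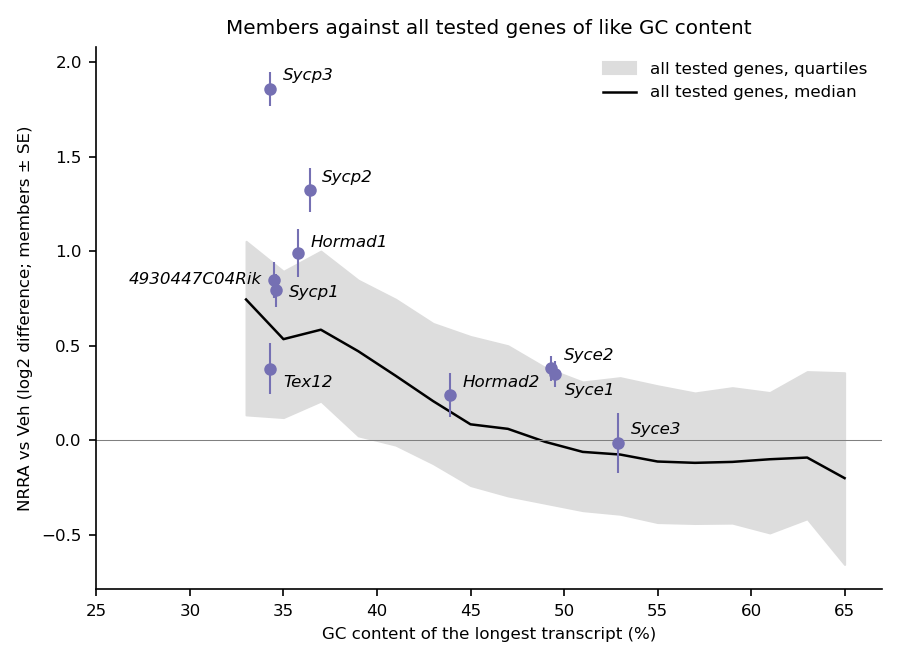
Log2 difference between NRRA and Veh (vertical axis) against the GC content of the longest transcript in percent (horizontal axis). Points are the 10 genes with the SE, the black line is the median and the grey band the quartiles of all tested genes in bins of 2 percentage points of GC. Sycp3, Sycp2, Hormad1, 4930447C04Rik and Sycp1 lie above the median of AT-rich genes, and Tex12, at 0.38, lies below it. Sycp1 and 4930447C04Rik stay within the grey band.

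Promoter sequences show one feature that the choice of genes did not use. RefSeq windows (GRCm38.p6, 250 bases before to 50 after the start site) were matched for all 10 genes, and each was searched on both strands for 4 short motifs: the E-box CACGTG, a palindrome read by MAX heterodimers such as MGA/MAX, the E2F core TCCCGC, the core CCTCAG of the site bound by STRA8 and MEIOSIN, and the retinoid receptor half-site AGGTCA. The E-box was found in the windows of 6 of the 10 genes and of 8.09% of the 27025 genes with a window. These 6 were Sycp1, Sycp3, Hormad1, Tex12, Syce2 and 4930447C04Rik, with a pair of E-boxes in both Sycp3 and Hormad1. The stretches around them, cut at the first annotated exon, are shown with the E-boxes in capitals because they carry this shared feature.
Sycp3, chr10:88459337-88459568, plus strand: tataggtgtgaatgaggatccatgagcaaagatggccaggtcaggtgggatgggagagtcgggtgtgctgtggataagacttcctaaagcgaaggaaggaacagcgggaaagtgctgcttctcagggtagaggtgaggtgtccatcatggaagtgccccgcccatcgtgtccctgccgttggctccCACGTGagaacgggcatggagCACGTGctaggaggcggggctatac
Hormad1, chr3:95559593-95559676, plus strand: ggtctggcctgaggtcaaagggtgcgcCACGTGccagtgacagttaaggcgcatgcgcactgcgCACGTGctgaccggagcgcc
Sycp1, chr3:102936162-102936221, minus strand: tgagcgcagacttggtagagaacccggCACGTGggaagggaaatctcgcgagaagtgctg
Tex12, chr9:50561329-50561388, minus strand: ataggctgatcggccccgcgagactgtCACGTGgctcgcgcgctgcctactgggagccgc
4930447C04Rik, chr12:72917907-72917963, minus strand: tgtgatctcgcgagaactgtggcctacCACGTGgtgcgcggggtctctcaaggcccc

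The E-boxes of Sycp3 begin 64 and 43 bases before its start site, those of Hormad1 57 and 20 bases before the first of its 2 listed starts, that of Tex12 93 bases, that of Sycp1 94 bases and that of 4930447C04Rik 171 bases before the start. Syce2 has its E-box 88 bases before the second of its 2 listed starts, within an annotated exon. The CCTCAG core was found for 7 of the 10 genes and for 29.4% of all genes, TCCCGC for 5 and 22% of all genes, and AGGTCA for 2, Hormad1 and Sycp3, and 18.1% of all genes. In Hormad1 the AGGTCA match shares 3 bases with a CCTCAG match, and in Syce2 a CCTCAG and a TCCCGC match share 1 base. In the 100 bases before the start, the E-box remained in 5 of the 10 genes and 3.7% of all genes, the CCTCAG core in 3 genes (10.8% of all genes), TCCCGC in 2 (10.8%) and AGGTCA in 1 (6.72%). None of these letters was found for Sycp2 or Syce3. The 6 genes with the E-box had log2 differences between NRRA and Veh of 0.38 to 1.86 with a median of 0.82, and the 4 without it -0.01 to 1.32 with a median of 0.29, so Sycp2, the gene with the second largest difference, stood among those without it. Of the 6 AT-rich genes 5 have the E-box, and without the GC content and length trend the medians were 0.31 with it and 0.24 without it. A match of letters describes the sequence only, and no binding was measured here.

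**Figure D2:**
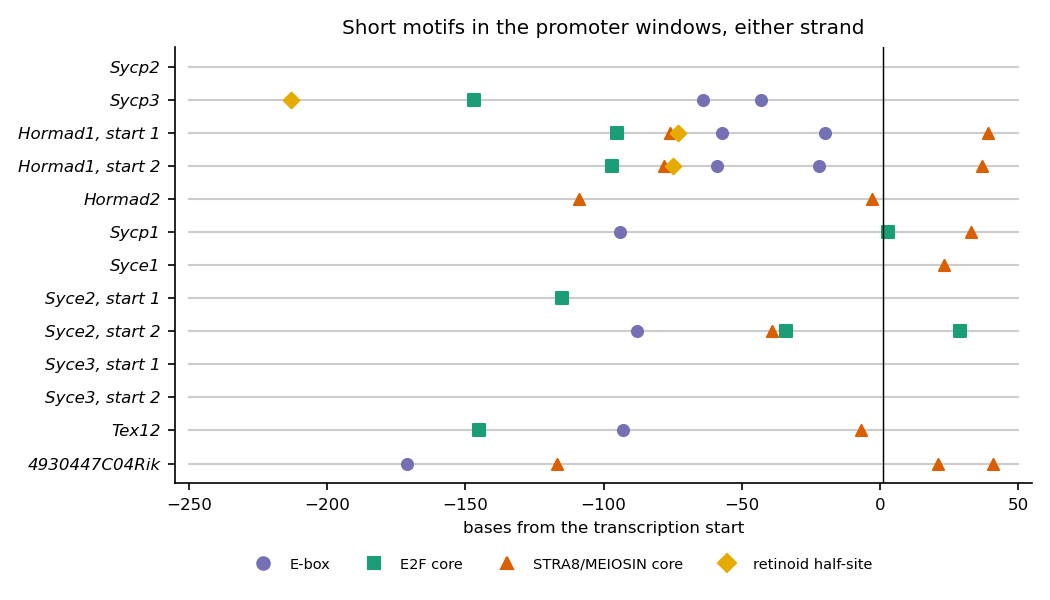
Positions of the 4 motifs in each promoter window, in bases from the transcription start (horizontal axis), with 1 row per window and 2 rows for genes with 2 listed starts. Circles are E-boxes, squares E2F cores, triangles CCTCAG cores and diamonds AGGTCA half-sites. The E-boxes of 5 genes lie within 100 bases before a start.

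Sycp3 encodes the lateral element protein that coats the chromosome axis (chr10:88459569-88473236, plus strand, 3 annotated transcripts). Its level was 9.01 and 10.8 CPM with Veh, 18.2 and 21 with RA, 19.5 and 19.9 with NR, and 36 and 35.8 with NRRA, from 182 to 1115 counts. The RA and NR libraries overlapped each other, both stood above Veh, and both NRRA libraries stood above every other library. The log2 difference from Veh was 1.00 ± 0.10 (SE) under RA (adjusted p = 7.73e-09), 0.99 ± 0.10 under NR (adjusted p = 6.51e-09) and 1.86 ± 0.0905 under NRRA (adjusted p = 1.35e-15). Without the GC content and length trend the first 2 were 0.53 and 0.64 and still passed, and NRRA stood at 1.28. NRRA was also higher than RA by 0.86 ± 0.0769 (adjusted p = 5.9e-10) and higher than NR by 0.87 ± 0.0772 (adjusted p = 6.69e-10). Of the exon bases of Sycp3, 52.2% overlap Chpt1, a choline phosphotransferase gene on the opposite strand, which was also 0.88 ± 0.0723 higher in NRRA than in Veh (0.39 without the trend). The counting kept strands apart: of 439 genes covered wholly by exons of the opposite strand, 365 had counts, against 1 of 712 genes covered wholly by other genes of their own strand.

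Sycp2 encodes the partner of SYCP3 in the lateral element (chr2:178345293-178407685, minus strand, 4 transcripts). It measured 20.2 and 18.3 CPM with Veh, 27.4 and 41.2 with RA, 43.2 and 44.5 with NR, and 51.8 and 44.8 with NRRA, from 352 to 1450 counts. NR and NRRA stood above both RA libraries, and the RA libraries differed from each other more than those of any other condition, with replicate 2 higher by 0.59 on the log2 scale. The difference from Veh was 0.86 ± 0.122 under RA (adjusted p = 2.37e-06), 1.19 ± 0.119 under NR (adjusted p = 6e-09) and 1.32 ± 0.116 under NRRA (adjusted p = 2.23e-10), and 0.46, 0.85 and 0.79 without the GC content and length trend, all still past the threshold. Sycp2 had the largest difference between NR and Veh of the 10 genes, and it was the only one of the 10 called higher in NR than in RA, by 0.33 ± 0.106 (adjusted p = 0.0119). That last call was lost without RA replicate 1, where the difference was 0.09, without NR replicate 2, without TMM scaling and under DESeq2. Between NRRA and RA the difference was 0.46 ± 0.102 (adjusted p = 0.000582), which DESeq2 did not call.

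Because SYCP2 and SYCP3 act as partners, the ratio of their mRNA levels per kilobase of exon was also computed, which no library scaling can change. Sycp3 stood at 2.11 and 2.78 times Sycp2 with Veh, 3.14 and 2.41 with RA, 2.13 and 2.1 with NR, and 3.28 and 3.77 with NRRA. The NRRA libraries had the highest ratios, the NR libraries overlapped the lower end of Veh, and the RA libraries overlapped Veh. Other ratios computed alike did not all have this order. That of Syce2 to Tex12 was 3.48 and 2.66 with Veh and 2.78 and 3.33 with NRRA, and so overlapped. That of Sycp1 to Syce3 was 1.86 and 2.25 with Veh, 2.45 and 3.94 with RA, 2.39 and 3.03 with NR, and 3.55 and 3.55 with NRRA, within the RA range.

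Hormad1 encodes a HORMA domain protein that marks unsynapsed axes and is needed for full levels of meiotic double-strand breaks (chr3:95559677-95587671, plus strand, 4 transcripts). It measured 7.23 and 8.7 CPM with Veh, 10.2 and 13.8 with RA, 9.2 and 9.42 with NR, and 14.8 and 16.8 with NRRA, from 146 to 523 counts. Both RA and NRRA libraries lay above Veh and NR, and both NR libraries lay just above Veh. Hormad1 rose by 0.62 ± 0.134 in RA (adjusted p = 0.000452) and by 0.99 ± 0.126 in NRRA (adjusted p = 1.64e-07), whereas the difference in NR was 0.23 ± 0.141 (adjusted p = 0.201), and -0.10 without the GC content and length trend. It was 0.76 ± 0.117 higher in NRRA than in NR (adjusted p = 6.17e-06) and 0.37 ± 0.111 higher than in RA (adjusted p = 0.00899), and 0.39 ± 0.125 lower in NR than in RA (adjusted p = 0.0109). In that fit RA was 0.18 above Veh and not called, and NRRA was 0.45 above Veh and called. Without RA replicate 2 the RA difference was 0.36 and not called, and without RA replicate 1 NRRA was 0.19 above RA and not called. The call of NRRA against RA also ended without NRRA replicate 2. DESeq2 called neither NRRA against RA nor NR against RA, and the latter also ended without RA replicate 2 or either NR library.

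Hormad2, the paralog of Hormad1 that acts in surveillance of unsynapsed chromosomes (chr11:4345814-4441105, minus strand, 6 transcripts), moved less. It measured 8.27 and 9.48 CPM with Veh, 10.1 and 12.5 with RA, 10.7 and 10.7 with NR, and 10.1 and 10.8 with NRRA, from 167 to 360 counts. All 6 treated libraries lay above both Veh libraries and overlapped one another. RA was 0.37 ± 0.118 higher than Veh (adjusted p = 0.0135), a call that ended without RA replicate 2, where the difference was 0.19, without Veh replicate 1, under DESeq2 and in the fit without the GC content and length trend, where it was 0.23. NR and NRRA differed from Veh by 0.27 ± 0.12 (adjusted p = 0.0702) and 0.24 ± 0.117 (adjusted p = 0.0823), and NRRA by 0.07 without that trend. Per kilobase, Hormad1 stood at 1.38 and 1.45 times Hormad2 with Veh, 1.6 and 1.75 with RA, 1.35 and 1.4 with NR, and 2.32 and 2.45 with NRRA, so the ratio was highest in the NRRA libraries. The genes differ in GC content (35.8% and 43.9%), and without the trend NRRA differed from Veh by 0.45 for Hormad1 and 0.07 for Hormad2.

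Sycp1, the transverse filament gene (chr3:102818499-102936100, minus strand, 4 transcripts), was the most abundant of the 10 in counts, from 1143 to 3130 per library. It measured 60.5 and 59.6 CPM with Veh, 73.9 and 102 with RA, 74 and 76.3 with NR, and 108 and 100 with NRRA. All treated libraries lay above Veh, and RA replicate 2 reached the NRRA level whereas RA replicate 1 lay at the NR level. The difference from Veh was 0.56 ± 0.0872 under RA (adjusted p = 8.08e-06), 0.32 ± 0.0885 under NR (adjusted p = 0.00394) and 0.79 ± 0.0853 under NRRA (adjusted p = 9.94e-09). Without the GC content and length trend these became 0.12 (not called), -0.04 (not called) and 0.2 (called), so that the direction in NR was lost, and DESeq2 did not call NR either. NRRA exceeded NR by 0.47 ± 0.0819 (adjusted p = 3.65e-05, and 0.24 without the trend) and RA by 0.23 ± 0.0805 (adjusted p = 0.0239). The last of these was 0.03 without RA replicate 1 and not called, nor was it called without the trend (0.08), under DESeq2, or without NRRA replicate 1 or either NR library. NR was 0.24 ± 0.0838 lower than RA (adjusted p = 0.0208), and 0.02 higher, without a call, when RA replicate 2 was left out. DESeq2 did not make that call, nor did it hold without either NR library.

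**Figure D3:**
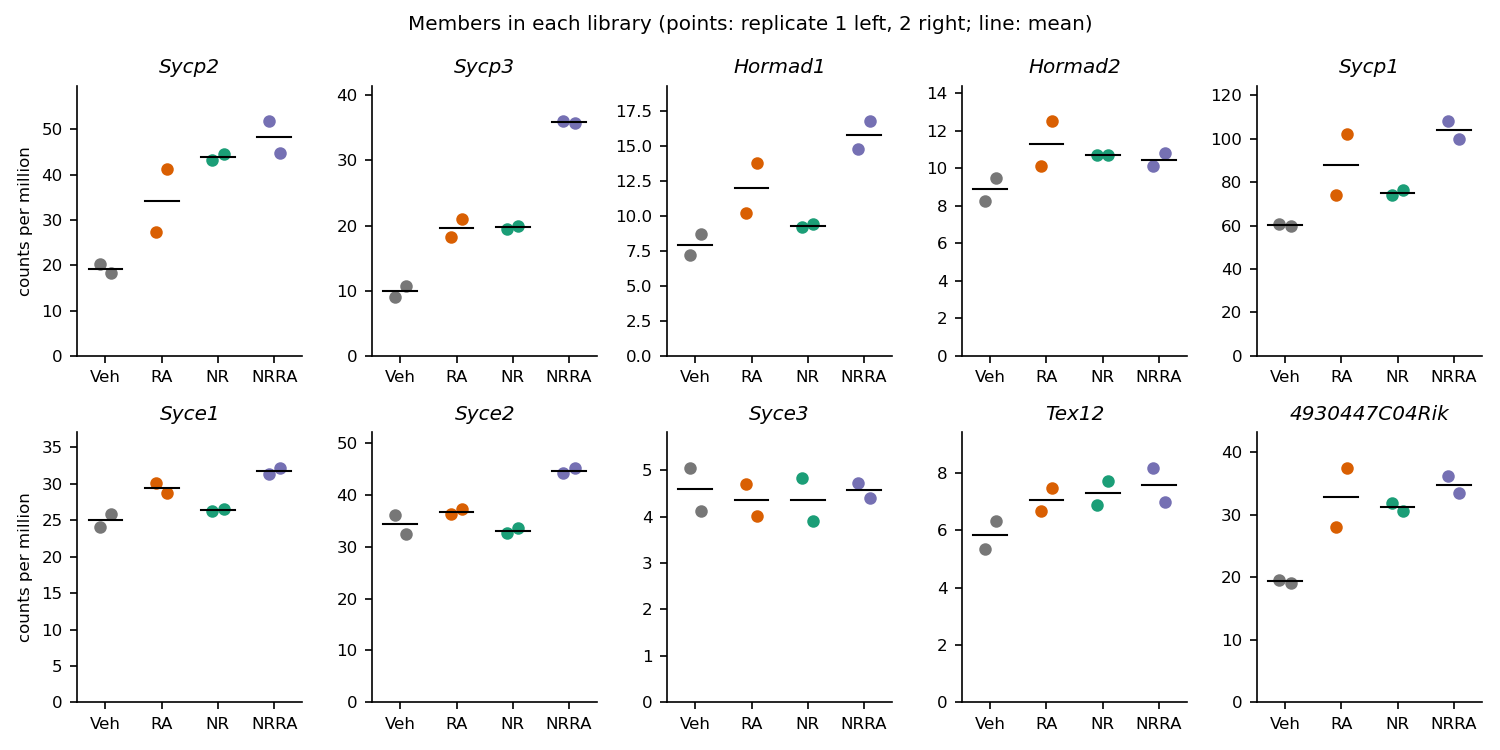
Level of each gene in CPM (vertical axis, from 0) in every library of Veh, RA, NR and NRRA (horizontal axis). Points are single libraries with replicate 1 on the left, and lines are means of 2. Sycp3 shows both NRRA libraries above all others at 35.8 and 36, Syce3 shows overlapping groups, and the RA libraries of Sycp1, Sycp2 and 4930447C04Rik are far apart.

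The central element genes had smaller differences. Syce1, which binds SIX6OS1 (chr7:140777229-140787852, minus strand), measured 24.1 and 25.9 CPM with Veh, 30.1 and 28.7 with RA, 26.2 and 26.5 with NR, and 31.4 and 32.2 with NRRA. The RA and NRRA libraries lay above the Veh and NR libraries. It was 0.23 ± 0.072 higher in RA than in Veh (adjusted p = 0.011), a call lost under DESeq2 and without Veh replicate 1 or RA replicate 1, and 0.35 ± 0.0695 higher in NRRA than in Veh (adjusted p = 0.000111). NRRA exceeded NR by 0.27 ± 0.067 (adjusted p = 0.00167), whereas NR differed from Veh by 0.08 ± 0.0732 (adjusted p = 0.426, and 0.12 without the trend).

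Syce2, whose product assembles into fibres with TEX12 (chr8:84872111-84888221, plus strand), measured 36.1 and 32.5 CPM with Veh, 36.2 and 37.2 with RA, 32.6 and 33.6 with NR, and 44.1 and 45.2 with NRRA. The NRRA libraries stood apart above the other 6, which lay close together. NRRA was higher than Veh by 0.38 ± 0.0641 (adjusted p = 1.27e-05), than RA by 0.28 ± 0.0617 (adjusted p = 0.000602) and than NR by 0.43 ± 0.0627 (adjusted p = 2.91e-06), and removing the GC content and length trend left these within 0.01 of the same values. RA alone differed from Veh by 0.10 ± 0.0669 (adjusted p = 0.24) and NR alone by -0.05 ± 0.068 (adjusted p = 0.592).

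Tex12, the partner of Syce2 (chr9:50556819-50561325, minus strand), was low, with 108 to 229 counts per library. It measured 5.35 and 6.31 CPM with Veh, 6.68 and 7.46 with RA, 6.89 and 7.71 with NR, and 8.18 and 7 with NRRA. All treated libraries lay above Veh and overlapped one another. The difference was 0.29 ± 0.141 under RA (adjusted p = 0.098), 0.33 ± 0.14 under NR (adjusted p = 0.0563) and 0.38 ± 0.135 under NRRA (adjusted p = 0.018). The call in NRRA was lost under DESeq2 and without Veh replicate 1 or NRRA replicate 1, and once the GC content and length trend was removed the sign turned in all 3 comparisons, to -0.19 for RA, -0.02 for NR and -0.20 for NRRA, none of them called.

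Syce3, which encodes a small protein that links SYCP1 to the rest of the central element (chr15:89390174-89410503, minus strand), had 79 to 137 counts per library. It measured 5.05 and 4.12 CPM with Veh, 4.69 and 4.02 with RA, 4.82 and 3.91 with NR, and 4.72 and 4.4 with NRRA, so all 4 conditions overlapped. The differences from Veh were -0.09 ± 0.167 under RA (adjusted p = 0.691), -0.09 ± 0.167 under NR (adjusted p = 0.709) and -0.01 ± 0.159 under NRRA (adjusted p = 0.948). Its standard errors were the largest of the 10 genes, and without the GC content and length trend the values were -0.02, -0.04 and 0.09.

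4930447C04Rik (Six6os1; chr12:72881109-72940774, minus strand, 9 transcripts) encodes the partner of SYCE1. It measured 19.6 and 19.1 CPM with Veh, 28 and 37.5 with RA, 31.8 and 30.6 with NR, and 36.1 and 33.5 with NRRA, from 366 to 1081 counts. All treated libraries lay above Veh, and the RA libraries spanned those of NR and NRRA. It rose by 0.78 ± 0.0982 under RA (adjusted p = 3.51e-07), 0.69 ± 0.0994 under NR (adjusted p = 2.52e-06) and 0.85 ± 0.0957 under NRRA (adjusted p = 2.34e-08), and by 0.34, 0.31 and 0.24 without the GC content and length trend, all past the threshold. NRRA differed from RA by 0.07 ± 0.0851 (adjusted p = 0.587) and from NR by 0.16 ± 0.0862 (adjusted p = 0.146), and by -0.10 and -0.06 without that trend. The RefSeq start of its window lies inside the span that GENCODE gives the gene, and 3.2% of its exon bases overlap Six6 on the opposite strand.

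Compared per kilobase of exon, 3 genes were at a like level in Veh: Syce2 at 17.4 ± 1.27 CPM per kilobase (SD, n = 2), Syce1 at 17.1 ± 0.885 and Sycp1 at 16.9 ± 0.182, which did not differ beyond their spread. Syce3 at 8.29 ± 1.2 and Sycp3 at 7.83 ± 0.992 came next and overlapped, then Tex12 at 5.74 ± 0.665 and Hormad1 at 4.61 ± 0.602. Hormad2, Sycp2 and 4930447C04Rik were lowest at 3.23 to 3.25. In NRRA the order began with Sycp1 at 29.3 ± 1.41 and Sycp3 at 28.4 ± 0.123, which again lay within their spread, followed by Syce2 at 22.7 ± 0.399 and Syce1 at 21.8 ± 0.402. Hormad1 at 9.13 ± 0.817, Syce3 at 8.24 ± 0.407, Sycp2 at 8.1 ± 0.829 and Tex12 at 7.47 ± 0.824 formed a middle group of neighbours within their spread, and 4930447C04Rik at 5.82 ± 0.296 and Hormad2 at 3.82 ± 0.192 were lowest. Sycp3 moved in this order from the fifth place to the second. These levels still carry the GC content and length trend. Without it NRRA differed from Veh by 1.28 for Sycp3, 0.20 for Sycp1, 0.39 for Syce2 and 0.38 for Syce1. The order in that fit was not computed, so the change of place holds only for the levels as given. The levels rest on oligo-dT libraries, in which reads need not cover a transcript evenly.

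Taken comparison by comparison, the question is which genes answer RA, which answer nutrient restriction and which need both. In RA against Veh, 7 of the 10 genes were higher (Sycp1, Sycp2, Sycp3, Syce1, Hormad1, Hormad2 and 4930447C04Rik) against 19.8% of all tested genes, and their median log2 difference over all 10 was 0.47 beside -0.02 for all tested genes. Only 4 of these 7 calls held once the GC content and length trend was removed, those of Sycp2, Sycp3, Syce1 and 4930447C04Rik. In NR against Veh, 4 were higher (Sycp1, Sycp2, Sycp3 and 4930447C04Rik) against 21.7% of all tested genes, with a median of 0.30 beside 0.01. All 4 are AT-rich, and 40.7% of the 290 tested genes of like GC content were called higher in NR. Without the trend 3 of these 4 calls held, those of Sycp2, Sycp3 and 4930447C04Rik. At a fold of at least 2, 1 gene was higher in RA (Sycp3, at the limit) against 4.74%, and 1 in NR (Sycp2) against 5.33%. These comparisons share the Veh libraries.

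NRRA was higher than RA for 5 of the 10 genes (Sycp1, Sycp2, Sycp3, Syce2 and Hormad1) against 20.9% of all tested genes, with a median of 0.17 beside 0.02. DESeq2 called 2 of these 5, Sycp3 and Syce2. NRRA was higher than NR for 5 genes (Sycp1, Sycp3, Syce1, Syce2 and Hormad1) against 21.3% of all tested genes, with a median of 0.21 beside 0.01. Sycp1, Sycp3, Syce2 and Hormad1 were therefore called above each single treatment and above Veh. For Sycp1 and Hormad1 the call above RA was lost under DESeq2 and when certain single libraries were left out. That of Sycp1 was also lost without the GC content and length trend. Between NR and RA 3 genes were called: Sycp2 was higher in NR, against 24.5% of all tested genes, and Sycp1 and Hormad1 were lower, against 23.8%. Both counts lie below those shares, and DESeq2 made none of these calls. Without RA replicate 1 the difference of Sycp2 was 0.09. Without RA replicate 2 those of Sycp1 and Hormad1 were 0.02 and -0.13.

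**Figure D4:**
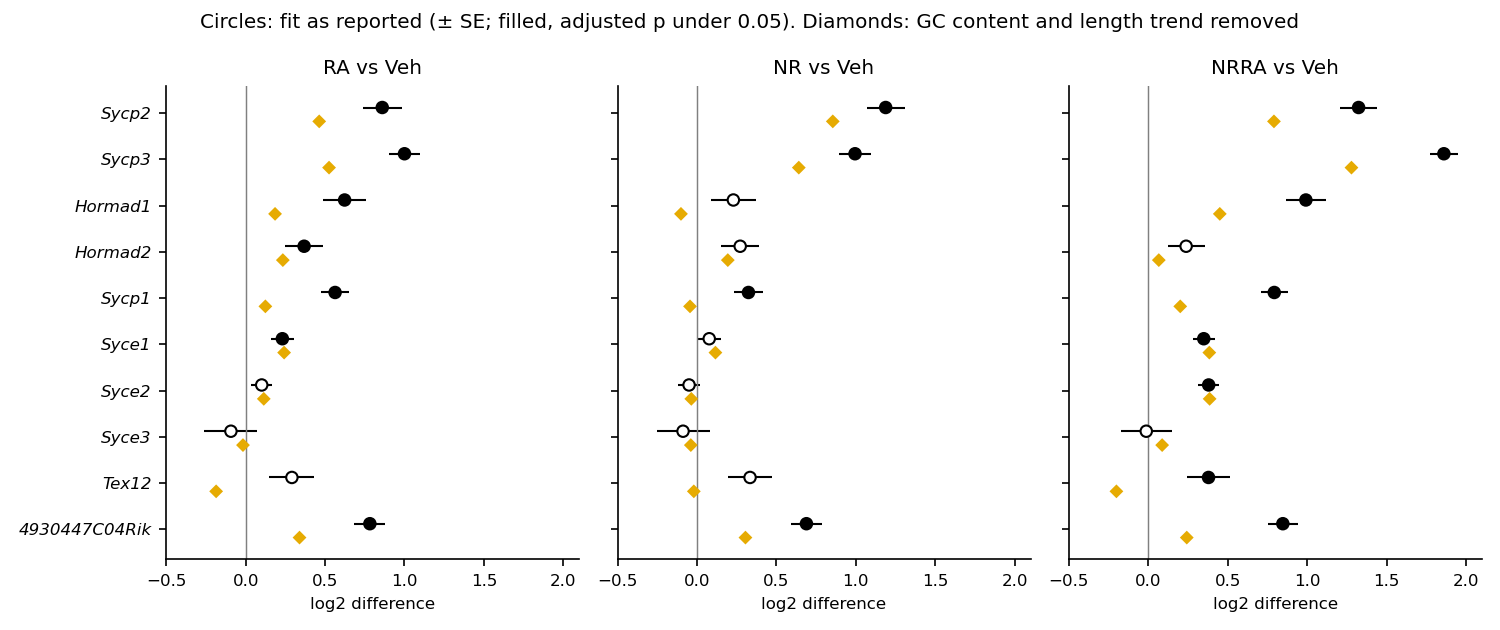
Log2 difference from Veh (horizontal axis) of each gene in RA, NR and NRRA. Circles with SE bars are the fit as reported and are filled where the adjusted p is under 0.05, and diamonds are the fit without the GC content and length trend. In NRRA the diamonds of Sycp3 at 1.28 and Sycp2 at 0.79 stay far from 0, and that of Tex12 lies at -0.20.

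Whether RA acted differently in restricted and in complete medium was tested as the difference between NRRA against NR and RA against Veh. For Sycp2 the RA effect was 0.72 ± 0.158 smaller in restricted medium, with an interaction of -0.72 (adjusted p = 0.00233): RA added 0.86 in complete medium and 0.14 ± 0.0997 in restricted medium, or 0.46 and -0.06 without the GC content and length trend. For 4930447C04Rik the interaction was -0.62 ± 0.131 (adjusted p = 0.00156), with 0.78 in complete and 0.16 in restricted medium. Without the trend the interaction was -0.40, from 0.34 and -0.06. For Syce2 it was positive, at 0.33 ± 0.0918 (adjusted p = 0.0159), with 0.10 in complete and 0.43 in restricted medium. So 2 of the 10 genes had a lower RA effect under restriction, against 6.58% of all tested genes, and 1 had a higher one, against 6.37%. The interactions of Sycp2 and 4930447C04Rik were -0.37 and -0.38 and not called without RA replicate 2. DESeq2 called neither that of Sycp2 nor that of Syce2, and the latter was also lost without Veh replicate 1, RA replicate 1, NR replicate 1, NR replicate 2 or NRRA replicate 2. For Sycp3 the interaction was -0.13 ± 0.128 (adjusted p = 0.567) and for Hormad1 0.14 ± 0.18 (adjusted p = 0.685), so neither was called. Without the trend they were 0.11 and 0.37, and again not called.

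**Figure D5:**
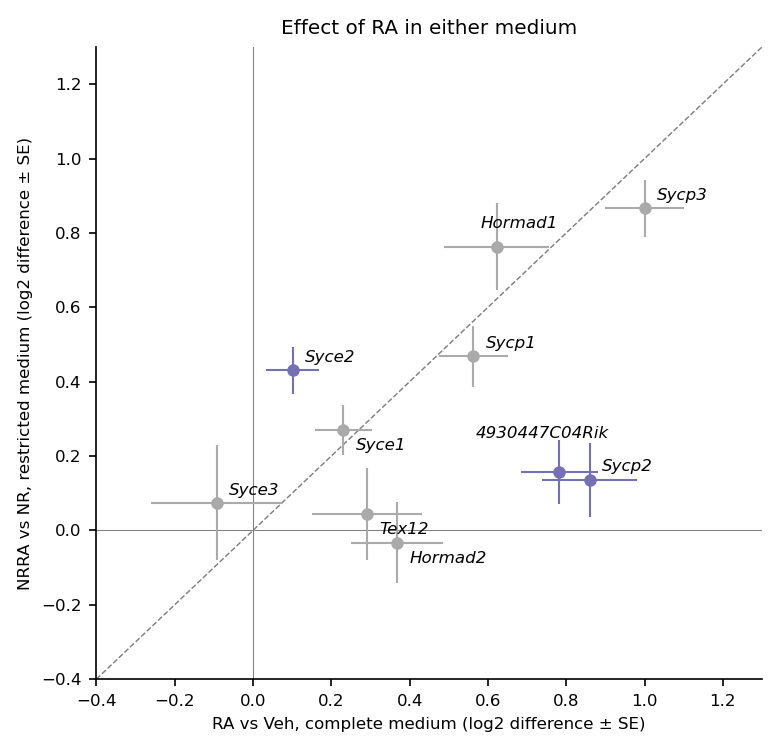
Effect of RA in restricted medium (NRRA vs NR, vertical axis) against its effect in complete medium (RA vs Veh, horizontal axis), both as log2 differences with SE bars. Purple points passed the test of the interaction, and the dashed line marks equal effects. Sycp2 and 4930447C04Rik lie below the line, Syce2 lies above it, and Sycp3 and Hormad1 lie near it.

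RA replicate 2 stood above RA replicate 1 for 8 of the 10 genes. For the 6 AT-rich genes the median gap between these libraries was 0.42 on the log2 scale, beside 0.11 for all 290 tested genes of like GC content. The same gap for the 6 genes was 0.10 in Veh, 0.04 in NR and -0.10 in NRRA. Calls that rest on the RA libraries are therefore given above with the library whose removal ends them.

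The genes outside this set whose levels most resembled Sycp3 over the 8 libraries were Phactr2 (Pearson r = 0.9958), Plagl1 (0.9949), Pla2r1 (0.9948), Celf2 (0.9932) and Kcnn3 (0.9930), out of 14796 genes that averaged 50 or more counts. By Spearman's rho, which was 0.810 to 0.976 for these 5, none of them was among the 5 highest, since 13 other genes tied at the top. Phactr2 measured 14.3, 22.9, 22.8 and 32.8 CPM on average in Veh, RA, NR and NRRA, and Plagl1 15.5, 29.9, 31.9 and 55.3. Within the set, r with Sycp3 ranged from -0.113 for Syce3 to 0.915 for Sycp1, with 0.902 for Hormad1. The 8 libraries form 4 conditions, and these values describe a shared order of conditions only.

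The wider axis and synapsis machinery was described with 52 genes in 5 lists, of which 51 were matched and tested (Spo16 was not matched). Dazl stands both among the upstream regulators and among the pan-germ-cell genes. In NRRA against Veh 31 of the 51 were higher and 5 lower, against 30.1% and 28.7% of all tested genes, and their median log2 difference was 0.53. In RA 24 were higher and 7 lower, against 19.8% and 23.4%, and in NR 20 were higher and 4 lower, against 21.7% and 22.2%. Without the GC content and length trend, 29 were higher and 8 lower in NRRA, 19 and 7 in RA, and 17 and 7 in NR. Read by list, these counts stand beside the same 30.1% and 28.7%. Among 12 partners of the HORMADs and of the axis, 4 rose in NRRA, a share near that of all tested genes, and 1 fell, and without the GC content and length trend 5 rose and 3 fell. Mei1, needed for meiotic break formation, rose by 1.73 ± 0.133 (adjusted p = 1.79e-11), and Iho1, the HORMAD1 interactor (Ccdc36 in the table), by 0.82 ± 0.0977 (adjusted p = 6.03e-08), beside 0.33 in RA and 0.21 in NR. Ankrd31, which helps place breaks, rose by 0.83 ± 0.0826 (adjusted p = 2.51e-09). Trip13, the ATPase that strips HORMADs from synapsed axes, fell by 0.71 ± 0.065 on the log2 scale (adjusted p = 4.96e-10), and by 0.47 in RA and 0.31 in NR, the opposite direction to Hormad1.

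All 8 tested genes of the synapsis-initiation and crossover list were higher in NRRA than in Veh, and 7 without the GC content and length trend, with Hfm1, a meiotic helicase, at 1.92 ± 0.222 (adjusted p = 3.52e-08), Tex11 at 0.78 ± 0.0832 (adjusted p = 8.57e-09) and Shoc1 at 0.67 ± 0.0855 (adjusted p = 1.68e-07). In RA 4 of the 8 rose and 1, Fkbp6, fell, and in NR 5 rose. In that fit the NRRA differences of Tex11, Shoc1 and, from the list before, Ankrd31 were 0.41, 0.44 and 0.52 and still passed, and Ccnb1ip1, named for this loss, was 0.15 and not called. Of the 8 genes of telomere attachment 4 rose in NRRA, namely Kash5 (0.91 ± 0.163, adjusted p = 2.81e-05), Terb1 (0.91 ± 0.202, adjusted p = 0.000375, and 0.53 without the trend), Majin (0.93 ± 0.263, adjusted p = 0.00372) and Terb2 (0.53 ± 0.194, adjusted p = 0.0212, and 0.08 without a call in that fit), all at or below 6.02 CPM on average. Of the 9 cohesin subunits 6 rose in NRRA, and 4 rose and 1 fell without the trend, with Rec8, the meiotic kleisin that the lateral element is built on, at 3.38 ± 0.104 in NRRA (adjusted p = 6.34e-20) and 3.41 ± 0.104 in RA. Rec8 averaged 77.7 CPM in RA and 76.3 CPM in NRRA. Of 14 upstream regulators 9 rose and 4 fell in NRRA, with Stra8, the RA-induced gatekeeper of meiosis, at 9.47 ± 0.0799 (adjusted p = 1.25e-31), Gm4969 at 3.34 ± 0.188 (adjusted p = 2.77e-14) and Meioc at 1.53 ± 0.0922 (adjusted p = 1.28e-13). Meioc differed from Veh by 1.67 in RA and by 0.06 in NR, the latter -0.19 without the trend.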

How the data were processed

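The deposited table holds raw counts, the number of reads per gene that the authors counted in each of the 8 libraries. Total RNA was made into stranded oligo-dT libraries and sequenced over 101 cycles per end, and the submitters' processing notes name bcl2fastq, STAR 2.6.1c, featureCounts 1.6.4 and mm10. The study describes the 2 libraries of a condition as independent biological replicates. Gene models were GENCODE M21, which held 55154 of the 55421 gene identifiers, and promoter windows came from RefSeq (GRCm38.p6). Libraries of a condition differed by more than sampling noise (chi-square of 1.58 to 3.93 per gene), so each counted as 1 replicate.

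Counts were fitted with edgeR 4.0.16 (R 4.3.3, TMM scaling, filterByExpr, quasi-likelihood F test) over all 8 libraries, so that the 4 conditions shared 1 estimate of the spread (biological coefficient of variation 3.35%, 4 residual degrees of freedom before moderation). Benjamini-Hochberg adjustment ran over all 20477 tested genes. A gene passed, rose or fell at an adjusted p under 0.05, and every adjusted p printed is from this test unless DESeq2 is named. SE is the absolute log2 difference divided by the square root of F. The interaction is the difference between NRRA against NR and RA against Veh. The study used DESeq2, run here (1.42.0) as an alternative. In simulated counts for NRRA against Veh, edgeR recovered 96 of 100 genes changed 2-fold, over 20477 genes, and DESeq2 86 of 100. For the interaction edgeR recovered 85 and DESeq2 72 of 100. These counts were drawn with the same spread for every gene. The recovery therefore does not carry over to genes that vary more or that changed by less than 2-fold.

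The GC content and length trend was removed by loess (span 0.3) of each library's log2 deviation, with values known for 20448 of the 20477 tested genes, and the fitted trend entered edgeR as offsets. With the text's rule, all 10 genes are named, at most 4 genes of each other list by the smallest adjusted p in NRRA against Veh, and the 5 genes most like Sycp3 by Pearson r of log2 CPM. Not every gene the rule allows is named. The genes and lists were chosen with earlier results of these data known, so counts over a list describe it and give it no test of its own. Alternatives were DESeq2, DESeq2 size factors, library totals without TMM, no filter, only the 2 groups compared, a replicate block, the GC content and length trend with and without that block, a fold of at least 2, and leaving out each library. Counts and depth limit precision, and intervals cover only the spread between these libraries. Figures were drawn with matplotlib 3.10.9.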

Additional observations from a re-analysis of the deposited data

Results flagged for a closer look

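The RA effect differed between the restricted and the complete medium for 3 genes by a test of the difference itself (edgeR interaction term, 2 libraries per condition). The values are log2 interactions of -0.72 for Sycp2, -0.62 for 4930447C04Rik and 0.33 for Syce2. Both Sycp2 and 4930447C04Rik lost the call without RA replicate 2, and DESeq2 called neither Sycp2 nor Syce2. Syce2 also lost it when Veh replicate 1, RA replicate 1, NR replicate 1, NR replicate 2 or NRRA replicate 2 was left out. Without the GC content and length trend all 3 passed, at -0.53, -0.40 and 0.31. No group had the 4 libraries that a test for a single library far from the others needs.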

How the results depend on the processing

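Of the 10 genes, 7 were higher in RA than in Veh, and without the GC content and length trend 4 were, also when the trend and a replicate block were fitted together. DESeq2 called 2 of the 5 genes higher in NRRA than in RA, 0 higher and 0 lower in NR than in RA (edgeR 1 and 2), and 0 higher and 1 lower in the interaction (edgeR 1 and 2). At an unadjusted p under 0.05 edgeR gave 5 genes for NR against RA and 4 for the interaction. Library totals without TMM gave 0 higher and 4 lower in NR than in RA, and the fit of the 2 groups alone gave 4 lower. At a fold of at least 2, 1, 1 and 2 genes were higher in RA, NR and NRRA than in Veh, and 0 passed in every other comparison. Leaving out 1 library gave 5 to 8 genes higher in RA, 4 to 6 in NR and 7 to 9 in NRRA than in Veh, 3 to 6 higher in NRRA than in RA, and 5 higher in NRRA than in NR under each omission. It gave 0 to 1 higher and 0 to 4 lower both in NR against RA and in the interaction, and the library left as the single one of its condition is there assumed to vary like the others.

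A called value turned its sign for Sycp1 in NR against Veh (-0.04 without the GC content and length trend, -0.05 with the replicate block as well) and for Tex12 in NRRA against Veh (-0.20 in both fits). Sycp1 in NR against RA ranged from -0.44 to 0.02 when 1 library was left out. Among the 70 differences (10 genes, 7 comparisons), uncalled values changed sign 14 times without the trend, 5 times without TMM and 30 times in the 560 values with 1 library left out. The replicate numbers do not pair the libraries (correlations of deviations from -0.033 to 0.023), and with the replicate block 7, 4 and 8 genes were higher in RA, NR and NRRA than in Veh, with no call changed. Without TMM the median of all tested genes in NRRA against Veh moved from 0.03 to 0.143. The cause of these changes was not tested. With 2 libraries per condition and as few as 79 counts for Syce3, small differences of the low genes cannot be resolved.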
